A study of Mus musculus with 10 samples.

Results

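Oligodendrocytes, the cells that wrap axons in myelin, arise from precursor cells that carry the growth factor receptor Pdgfra and the surface proteoglycan Cspg4 (NG2). The basic helix-loop-helix factors Olig1 and Olig2, the HMG-box factor Sox10 and the homeodomain factor Nkx2-2 set this fate and are still made, to different degrees, as the cells mature. Gpr17 is a receptor of a passing stage between precursor and myelinating cell. In the mouse the axons are bare within the nerve head, and myelin begins just behind the eye, so a dissected nerve head can hold a varying stretch of myelinated nerve.

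These 7 genes were followed in the optic nerve head of male C57Bl/6 mice, 6 to 8 weeks old, with 10 mice in the study. The right eye was held at a pressure of 30 mmHg for 1 hour through a micropipette in its front chamber, and tissue was collected 3 days later, while the left eye had no operation and served as the control. Each array carried RNA from 2 pooled nerve heads, with 5 control and 5 elevated pressure arrays, so the surgery and the side of the body cannot be told apart from the pressure. Members were found by exact match of the gene symbol in the platform annotation. Of the 7 names, 6 had a probe set, 10 probe sets in all, among 12393 named genes, and Gpr17 was not analysed here. Values are probe set signals on a linear scale. Where a gene had several probe sets the one with the highest mean is called its main probe set, and levels were not compared between genes because probes differ in brightness.

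The median signal of the arrays lay between 414 and 475. Elevated pressure replicate 1 stood apart, correlating with the rest at 0.974 on average, where every other array had 0.986 to 0.989, and its Gapdh control probes had a 3' over 5' ratio of 2.07, where the others had 1.53 to 1.73. The next highest Gapdh value, 1.73, was that of elevated pressure replicate 4. By the actin control probes replicate 4 was the highest array at 2.13 and replicate 1 came next at 2.10, above the remaining 8 arrays, which lay between 1.65 and 1.94. These arrays were also the lowest and second lowest for the 4 transcription factors described below, and the part of RNA quality in those values was not tested. Astrocyte markers, 13 of 14 measured, had a summed signal between 76955 and 85428 on all arrays, and the 22 measured of 30 mature myelin genes one between 89193 and 145982. The table used holds no detection calls, so a dim value may lie below background. In pooled tissue fewer cells of a type and less RNA per cell cannot be told apart.

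Olig2 and Nkx2-2 are transcription factors on different chromosomes whose signals varied together over the arrays, as described below, and the bases before a start of each show what they share in letters. The sequences are from RefSeq on GRCm38.p6, 250 bases ending just before the transcript start that the RefSeq promoter table gives, and capitals mark each E-box, the letters CANNTG that basic helix-loop-helix factors such as Olig2 recognise.
Olig2, chr16:91225300-91225549, plus strand: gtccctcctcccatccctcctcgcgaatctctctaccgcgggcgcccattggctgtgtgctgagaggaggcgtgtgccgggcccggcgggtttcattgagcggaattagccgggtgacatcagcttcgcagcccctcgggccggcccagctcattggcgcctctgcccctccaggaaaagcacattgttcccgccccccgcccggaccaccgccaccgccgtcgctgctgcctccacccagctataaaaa
Nkx2-2, chr2:147186403-147186652, minus strand: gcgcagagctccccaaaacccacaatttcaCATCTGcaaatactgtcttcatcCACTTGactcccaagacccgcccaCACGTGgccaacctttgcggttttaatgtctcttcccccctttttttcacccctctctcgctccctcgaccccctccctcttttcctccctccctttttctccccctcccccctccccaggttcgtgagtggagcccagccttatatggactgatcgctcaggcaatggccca
The Nkx2-2 window holds 3 E-boxes and the Olig2 window 0, while 66.2% of 32841 mouse windows of the same length hold at least 1. The letters AAGTG, the core that NK2 homeodomain factors recognise, were found 1 time in the Nkx2-2 window, on the opposite strand within its second E-box, and 0 times in the Olig2 window. They occur on either strand in 40.7% of windows. A core of Sox factors, ACAAAG, was in neither window and is in 16.5% of all. Of the other members, the Pdgfra window holds 1 E-box and the Cspg4 window 0. For Nkx2-2 and Pdgfra the start in that table lies within a longer gene model of the same annotation (chr2:147176485-147195434 and chr5:75151322-75198206), so these windows are inside the gene's span and not before it. Olig1 and Olig2 are neighbours on chromosome 16, with 41092 bases between the end of Olig2 and the start of Olig1. Sox10 lies on chromosome 15, Pdgfra on chromosome 5 and Cspg4 on chromosome 9.

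The 4 transcription factors varied widely among pools of the same group. Olig1 had a signal of 1714, 2853, 2815, 2184 and 1841 in control replicates 1 to 5, and of 1108.5, 2873, 2473, 1312 and 2411 in elevated pressure replicates 1 to 5. Olig2 read 545, 1053, 1091, 689 and 405 in the controls and 245, 816, 596, 388 and 644 after elevated pressure. In both genes control replicates 2 and 3 and elevated pressure replicate 2 were high, elevated pressure replicates 1 and 4 were the lowest of all, and the groups overlapped.

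Sox10, which switches on myelin genes directly and is also made by Schwann cells and melanocytes, had main probe set signals of 2576, 3366, 4440, 2844 and 2461 in control replicates 1 to 5. After elevated pressure they were 1459, 3753, 2779, 2375 and 3329. Nkx2-2, a factor of the step from precursor to myelinating cell, read 163, 469, 488, 210.5 and 183 in the controls and 24.4, 303, 371, 140 and 259 after elevated pressure. The lowest and highest arrays were the same for Olig2, Sox10 and Nkx2-2, elevated pressure replicate 1 and control replicate 3. From lowest to highest array Olig2 spanned 4.45-fold, Sox10 3.04-fold and Olig1 2.59-fold. For Nkx2-2 the lowest value, 24.4, is dim and may lie below background, so no span is given over all arrays. Without elevated pressure replicate 1 the spans of Nkx2-2, Olig2, Sox10 and Olig1 were 3.49, 2.81, 1.87 and 2.19-fold.

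The receptor gene Pdgfra, which fibroblasts also express, and Cspg4, which pericytes also express, spanned less by their main probe sets. Pdgfra had main probe set signals of 6109, 5392, 5160, 5291 and 4804 in control replicates 1 to 5 and of 3598, 4406, 5928, 5545 and 5392 after elevated pressure, a 1.70-fold span. Cspg4 read 473, 450.1, 545, 474 and 444 in the controls and 609, 446, 512, 522 and 506 after elevated pressure, a 1.37-fold span. Elevated pressure replicate 1, the lowest array for Pdgfra and for all 4 transcription factors by their main probe sets, was the highest for Cspg4.

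**Figure D1:**
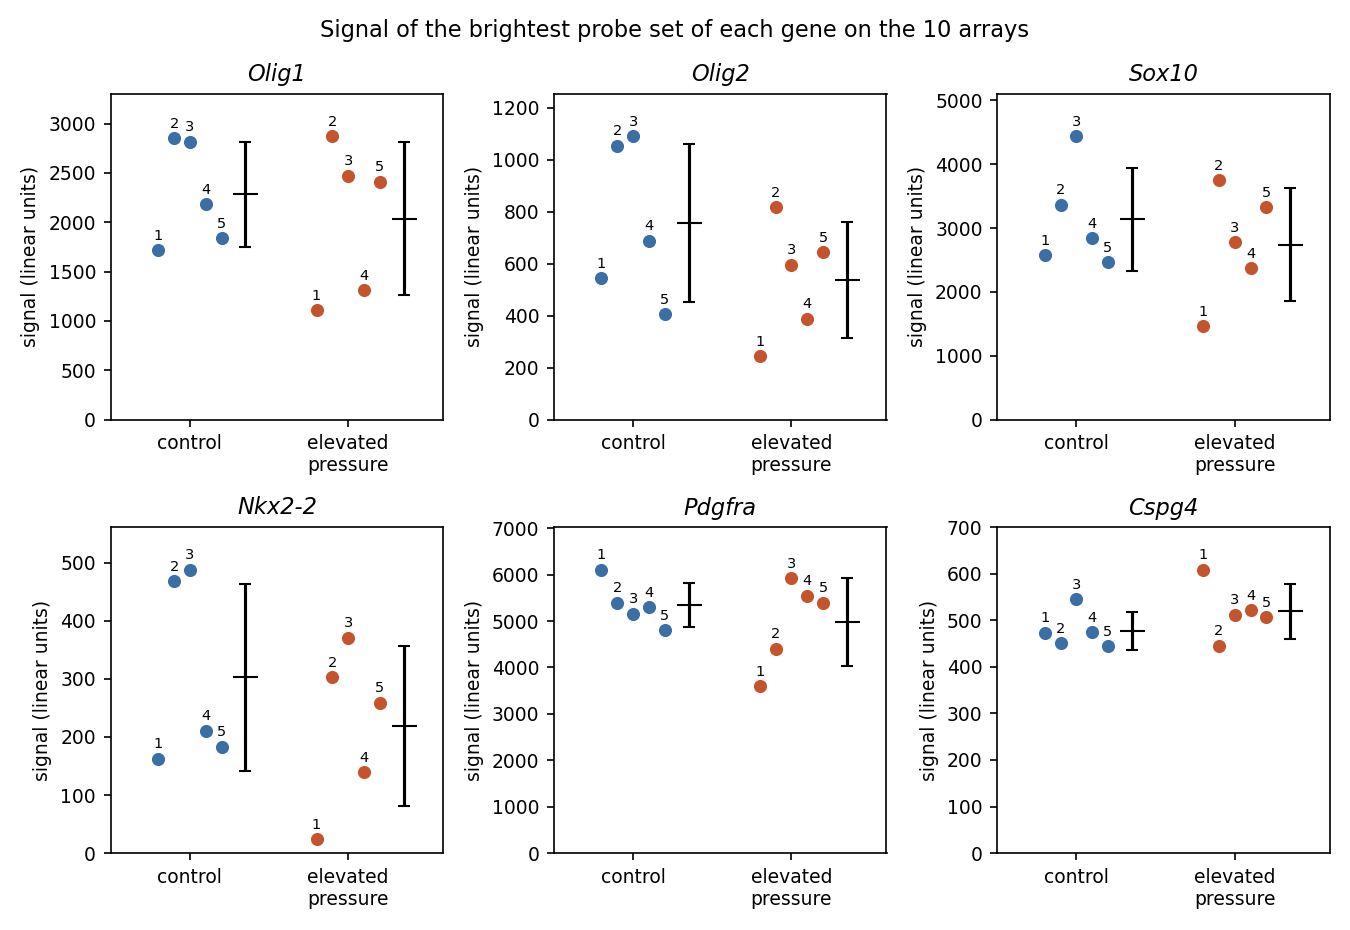
Signal of the main probe set (vertical axes, linear units from 0) of the 6 genes in control and elevated pressure pools, with replicate numbers beside the points and black bars for the mean and SD (n = 5). The groups overlap in each gene, and elevated pressure replicate 1 is lowest in every panel except Cspg4, where it is highest at 609.

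The comparison of the groups asks whether a brief rise of pressure alters these genes 3 days later. Olig1 averaged 2281 ± 533 (SD, n = 5) in the control pools and 2036 ± 777 (SD, n = 5) after elevated pressure. On the scale log2(signal + 16), which understates changes of dim genes, its fold change was -0.23 with a 95% interval from -0.83 to 0.38. For Olig2 the means were 756 ± 305 (SD, n = 5) and 538 ± 224 (SD, n = 5), and the log2 fold change was -0.49, with an interval from -1.27 to 0.28.

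Sox10 went from 3137 ± 808 (SD, n = 5) to 2739 ± 887 (SD, n = 5), a log2 fold change of -0.23 (interval -0.78 to 0.32). The dim Nkx2-2 had means of 303 ± 161 (SD, n = 5) and 220 ± 138 (SD, n = 5), with a log2 fold change of -0.64 and the widest interval of the 6, from -1.93 to 0.65. None of these differences was larger than the spread between pools.

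Pdgfra averaged 5351 ± 478 (SD, n = 5) in the control pools and 4974 ± 952 (SD, n = 5) after elevated pressure, with a log2 fold change of -0.12 (interval -0.43 to 0.18). Cspg4 was the 1 gene with a value above 0, at 477 ± 40.1 (SD, n = 5) and 519 ± 58.4 (SD, n = 5), a log2 fold change of 0.11 (interval -0.10 to 0.32). The intervals of Olig1, Sox10, Pdgfra and Cspg4 lay within 2-fold in both directions, as did those of 95.5% of all genes, and those of Olig2 and Nkx2-2 did not.

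By limma with Benjamini-Hochberg adjustment over all genes 0 of the 6 genes were called, with adjusted p between 0.849 and 0.866, where 0% of all 12393 genes were called. At an unadjusted p under 0.05 there were 0 of the 6 genes and 492 of all genes (3.97%), and 525 of all genes by the exact permutation test. The groups overlapped in all 6 genes, while they did not in 0.629% of all genes. Of the 6 genes 5 had a log2 fold change below 0, with a median of -0.23, against 52.7% of all genes and a median of -0.01. Without elevated pressure replicate 1 the values of Olig1, Olig2, Sox10, Nkx2-2, Pdgfra and Cspg4 were -0.03, -0.25, -0.02, -0.09, -0.01 and 0.06. Other arrays that moved a value by over 1.5 times when left out were control replicates 2 and 3 and elevated pressure replicates 2 and 4 for Olig1 (-0.14, -0.14, -0.38 and -0.09), control replicate 3 and elevated pressure replicate 2 for Sox10 (-0.10 and -0.36), and control replicate 1 and elevated pressure replicate 3 for Pdgfra (-0.07 and -0.19).

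**Figure D2:**
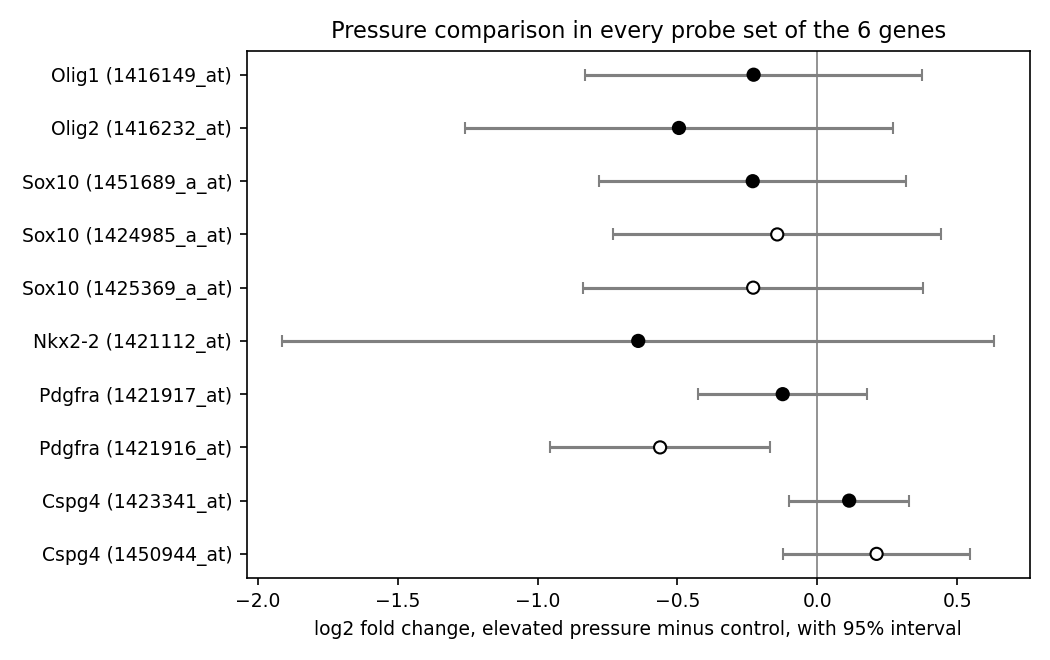
Log2 fold change of elevated pressure minus control (horizontal axis) with 95% intervals for the 10 probe sets, from limma over all 20380 probe sets; filled points are main probe sets and open points the other probe sets of a gene. The interval of the dimmer Pdgfra probe set, from -0.96 to -0.17, is the 1 that leaves out 0.

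Sox10, Pdgfra and Cspg4 had more than 1 probe set, and with all arrays the probe sets of a gene had the same sign. Both other Sox10 probe sets were lower on average, at log2 fold changes of -0.14 and -0.23, and the second Cspg4 probe set stood at 0.21. The Sox10 probe set at -0.14 stood at 0.04 without elevated pressure replicate 1 and at -0.002 without control replicate 3. The second Pdgfra probe set was dimmer, with signals of 239, 141, 145, 125 and 140 in control replicates 1 to 5 and of 80.3, 76.6, 110.4, 105 and 133 after elevated pressure. It spanned 3.12-fold over the 10 arrays, and 4 of 5 elevated pressure arrays lay below the lowest control array. It had a log2 fold change of -0.56 (standard error 0.179), and the limma unadjusted p of 0.00952 became 0.832 when adjusted over all 20380 probe sets. The two-sided exact permutation p was 0.0159, where the smallest these arrays can give is 0.00794. Of the 10 probe sets it alone had an unadjusted p under 0.05, against 911 (4.47%) of all probe sets. With each array left out in turn its log2 fold change ran from -0.65 to -0.42. The main Pdgfra probe set had -0.12 on the same arrays, and Pearson's r between both was 0.69 over the 10 arrays (permutation p = 0.0342, adjusted over 5 pairs of probe sets 0.0342; Spearman's rho 0.43, permutation p = 0.217; r = 0.57 without the 2 arrays farthest from the median). The platform annotation gives both the same source accession, and whether they read different transcript ends was not tested.

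Although no group difference was called, the 4 transcription factors varied together from pool to pool. Pearson's r over the 10 arrays lay between 0.91 and 0.94 in the 6 pairs among Olig1, Olig2, Sox10 and Nkx2-2. These 6 of 15 pairs of genes had a permutation p adjusted over the 15 pairs under 0.05, and they were also the 6 called by Spearman's rho. The pair of Olig2 and Sox10 had r = 0.94 (permutation p = 4e-05, adjusted p = 0.0002) and rho = 0.98 (permutation p = 2e-05, adjusted p = 0.0003). For the neighbours Olig1 and Olig2 r was 0.93 (permutation p = 7e-05, adjusted p = 0.000262) and rho 0.89 (permutation p = 0.00105, adjusted p = 0.00285). Sox10 and Nkx2-2 had r = 0.92 (permutation p = 0.0007, adjusted p = 0.00175) and rho = 0.89 (permutation p = 0.00114, adjusted p = 0.00285).

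These relations did not rest on the array that stood apart. The 6 pairs had r between 0.81 and 0.90 without elevated pressure replicate 1, without the 2 arrays farthest from the median of the first gene between 0.72 and 0.90, and with each group centred on its own mean between 0.90 and 0.94. Left and right eyes came from the same 10 mice, and which pools share mice is not given, so the 10 arrays are not fully independent and these p-values treat them as if they were.

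Pdgfra and Cspg4 had no called relation with the 4 factors or with each other. The r of Pdgfra with the factors lay between 0.35 (Olig1, permutation p = 0.333) and 0.61 (Nkx2-2, permutation p = 0.0776, adjusted p = 0.166), with rho between -0.067 and 0.079. These r were between -0.42 and -0.15 without elevated pressure replicate 1. Cspg4 had r between -0.54 and -0.45 with the factors, and between -0.11 and 0.19 without that array. Without control replicate 3 the r of Cspg4 with the factors lay between -0.78 and -0.71, at adjusted permutation p of 0.0463 to 0.0480, so 10 of 15 pairs were called there. Pdgfra and Cspg4 had r = -0.38 (permutation p = 0.280, adjusted p = 0.300; rho = -0.0061, permutation p = 1), and r = 0.44 without elevated pressure replicate 1.

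**Figure D3:**
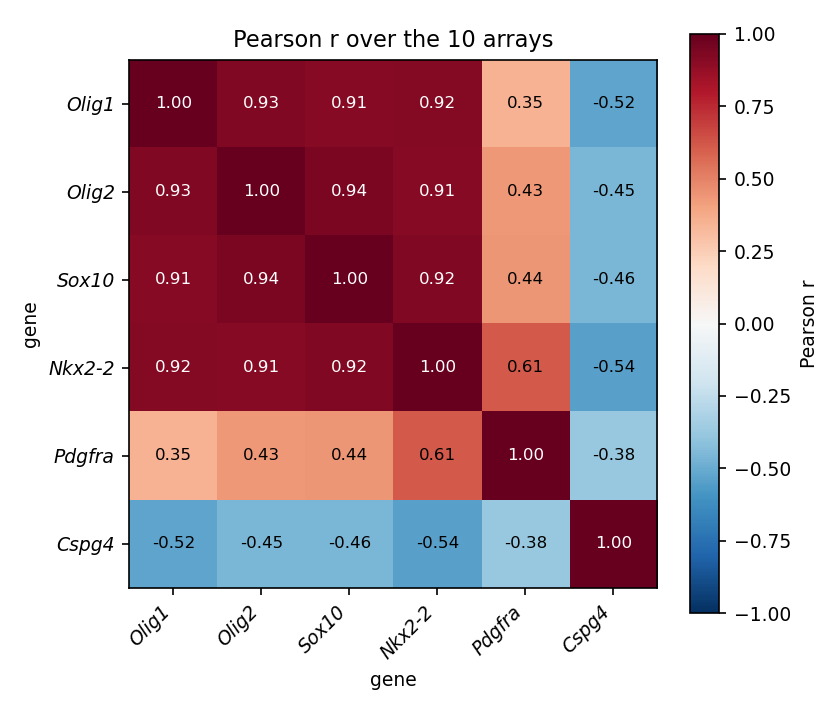
Pearson's r over the 10 arrays on log2(signal + 16) for each pair of the 6 genes, coloured from -1 to 1. Olig1, Olig2, Sox10 and Nkx2-2 form a block with r of 0.91 to 0.94, while Pdgfra and Cspg4 have r between -0.54 and 0.61 with the block.

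The same 4 factors followed the genes of mature myelin across the pools. The myelin score of an array is the mean over the 22 measured genes, among them Mag and Mog, of how far its log2 value lies from its mean on the 10 arrays. It was -0.02, 0.44, 0.44, 0.07 and -0.17 in control replicates 1 to 5 and -0.99, 0.22, 0.11, -0.23 and 0.13 after elevated pressure. Elevated pressure replicate 1 was lowest, as for all 4 factors by their main probe sets, and elevated pressure replicate 4 was second lowest, as for the 4 factors too. Control replicates 2 and 3 were highest, as for Olig2 and Nkx2-2.

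Nkx2-2 had r = 0.98 with the myelin score (permutation p = 2e-05, adjusted p = 0.0006, rho = 0.94, permutation p = 0.00018). Olig2 had r = 0.96 (permutation p = 1e-05, the smallest 100000 draws can give, adjusted p = 0.0006, rho = 0.95, permutation p = 0.00012). For Sox10 r was 0.95 (permutation p = 9e-05, adjusted p = 0.00202, rho = 0.95, permutation p = 0.00016) and for Olig1 0.92 (permutation p = 2e-05, adjusted p = 0.0006, rho = 0.94, permutation p = 0.00022). Without the 2 arrays farthest from the gene's median the r of these 4 genes lay between 0.85 and 0.98, and without elevated pressure replicate 1 between 0.89 and 0.99. Pdgfra had r = 0.62 (permutation p = 0.0774, adjusted p = 0.238; rho = 0.079, permutation p = 0.840), which became -0.16 without elevated pressure replicate 1, while Cspg4 had r = -0.58 (permutation p = 0.0810, adjusted p = 0.238; rho = -0.26, permutation p = 0.468), which became 0.062. How far the amount of myelinated nerve in a pool sets these values was not tested.

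**Figure D4:**
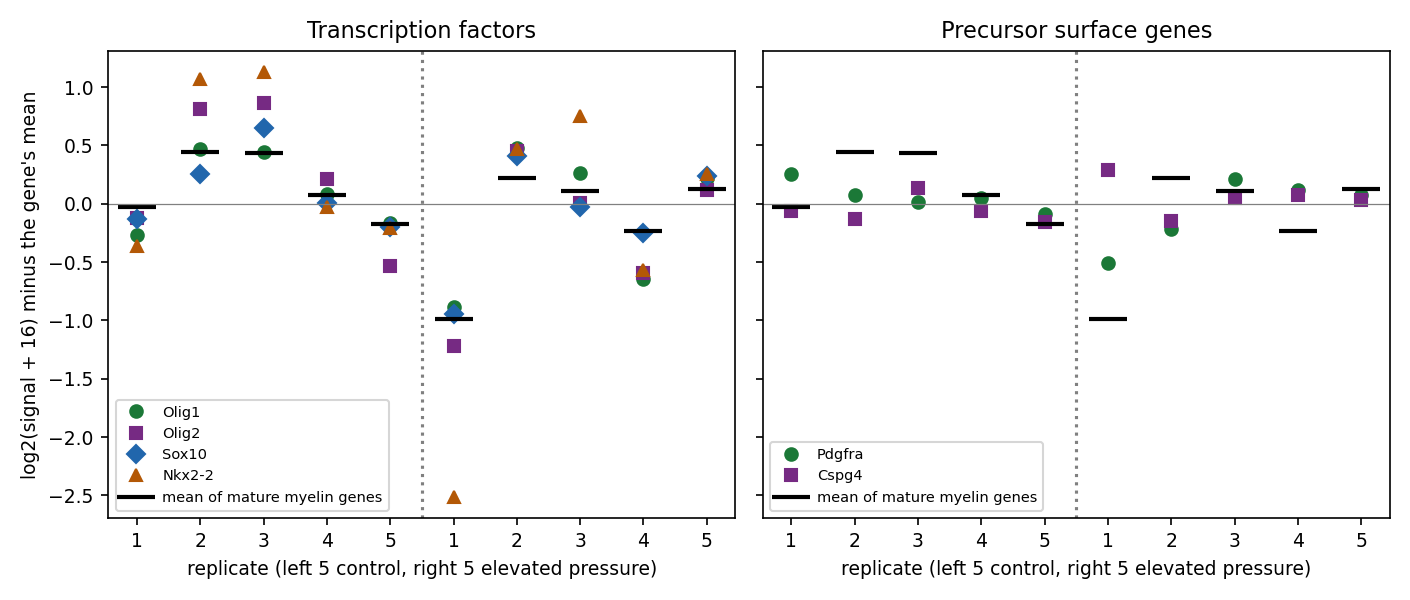
Deviation of log2(signal + 16) from each gene's mean (vertical axis) by array (horizontal axis, 5 control and 5 elevated pressure replicates), with black bars for the mean deviation of 22 mature myelin genes. The 4 transcription factors (left) move with the myelin genes, which run from -0.99 to 0.44, while Pdgfra and Cspg4 (right) stay closer to 0.

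Relations were computed for the 6 genes with the scores of 15 lists, 90 in all, a step chosen after the data were seen. At an adjusted permutation p under 0.05 there were 11 by Pearson's r and 4 by Spearman's rho, and the latter were the 4 factors with mature myelin. Among the others Nkx2-2 had r = 0.93 with the 10 measured genes of committed and newly formed oligodendrocytes (permutation p = 0.00098, adjusted p = 0.0147; rho = 0.79, permutation p = 0.00901), which was 0.66 without the 2 farthest arrays. With the same list Olig2 had r = 0.84 (permutation p = 0.0018, adjusted p = 0.0231; rho = 0.66, permutation p = 0.0441) and Sox10 r = 0.86 (permutation p = 0.00285, adjusted p = 0.0294; rho = 0.66, permutation p = 0.0432), which became 0.59 and 0.45. Sox10 also had r = 0.86 with the 12 microglial genes (permutation p = 0.00327, adjusted p = 0.0294; rho = 0.60, permutation p = 0.0722), and 0.37 without the 2 farthest arrays. Pdgfra had r = 0.89 with the 12 endothelial genes (permutation p = 0.00039, adjusted p = 0.00702; rho = 0.81, permutation p = 0.0069, adjusted p = 0.116), and 0.79 without the 2 farthest arrays. With the 26 other lineage regulators its r was 0.88 (permutation p = 0.00453, adjusted p = 0.0371; rho = 0.56, permutation p = 0.0957) and with the 5 PDGF genes 0.86 (permutation p = 0.00302, adjusted p = 0.0294; rho = 0.66, permutation p = 0.0441), which became 0.17 and 0.63. When elevated pressure replicate 1 was left out, 4 of the 90 relations were called. Among relations that were not called, Sox10 had r = 0.084 with the 7 measured Schwann cell genes (permutation p = 0.818; rho = 0.067) and -0.35 with the 9 pigment genes (permutation p = 0.311; rho = -0.39). The r of Cspg4 with 14 pericyte and smooth muscle genes was 0.59 (permutation p = 0.0704, adjusted p = 0.226; rho = 0.59), and that of Pdgfra with 15 fibroblast and meningeal genes 0.16 (permutation p = 0.687; rho = 0.16). Without the 2 arrays farthest from the gene's median these 4 values were -0.21, -0.45, 0.63 and -0.011.

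The single genes most like each factor, by r over the 10 arrays after centring each group, were searched among 6193 genes brighter than the median gene. For Nkx2-2 they were Mag and Mog, which encode proteins of the myelin sheath, and the cyclic AMP phosphodiesterase gene Pde4b, at r of 0.98, 0.97 and 0.97. For Olig1 they were Il33, a nuclear cytokine, Myrf, the factor that drives myelin genes, and Tbc1d14, at r of 0.97, 0.96 and 0.96. Sox10 was matched by Tmeff2, whose product binds PDGF, the secreted protease gene Klk6 and the sphingosine-1-phosphate receptor gene S1pr5, at 0.98, 0.98 and 0.97. Olig2 was matched by the ephrin gene Efnb3, Nkain1 and Pdlim2, at 0.99, 0.98 and 0.98.

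Those nearest to Pdgfra were the splicing factor gene Srsf10, the VEGF receptor gene Flt1 and Hey1, a target of Notch, at 0.99, 0.99 and 0.98. An r above 0.8 was more common with Pdgfra, at 15.8% of the genes searched, than with Nkx2-2, Sox10, Olig2 or Olig1, at 4.52%, 2.54%, 2.34% and 1.53%. Cspg4 had the fewest, 0.371%, and its nearest genes, Adprhl2, Ubald1 and Tor3a, had r of 0.91, 0.89 and 0.87. The r of this search were not computed without elevated pressure replicate 1, so the part of that array in them was not tested. It was the lowest array for Pdgfra by its main probe set, at 3598. Without it the r of Pdgfra with the mature myelin score went from 0.62 to -0.16, and with the endothelial score from 0.89 to 0.78. The values of the search are a description, picked as the highest of many.

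Other genes of the lineage showed the same absence of called differences. Of 30 further regulators 26 were measured, 10 higher and 16 lower (median -0.06, 0 called). The homeodomain gene Nkx6-1, at 0.33 (standard error 0.125), was the 1 gene among them at an unadjusted p under 0.05 (limma adjusted p = 0.849). Of all genes 3.97% were below that threshold. Prrx1, the chromatin remodeller gene Smarca4 and the stem cell factor gene Sox2 stood at -0.17, 0.18 and -0.24, and 1 other probe set of Prrx1 had the opposite sign. Leaving out elevated pressure replicate 1 gave 0.10 for Smarca4, -0.11 for Sox2 and -0.11 for Prrx1.

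Of 21 further precursor genes 14 were measured, 6 higher and 8 lower (median -0.07, 0 called). They included the matrix proteoglycan gene Vcan at -0.29, C1ql1 at 0.30, Traf4 at 0.12 and the proteoglycan gene Cspg5 at -0.26, of which a second Traf4 probe set stood at -0.12. Vcan, C1ql1 and Cspg5 stood at -0.15, 0.19 and -0.06 without elevated pressure replicate 1. Among 10 measured of 18 genes of committed and newly formed oligodendrocytes 4 were higher and 6 lower (median -0.03, 0 called), with the kinase gene Fyn at -0.45, Lims2 at 0.17, the calcium channel gene Itpr2 at 0.17 and the ligand gene Bmp4 at 0.11. Fyn stood at -0.17 without elevated pressure replicate 1, and at 0.08 on its other probe set, and Itpr2 at 0.08 without that array. Of the 4 other probe sets of Itpr2 1 had the opposite sign, at -0.04.

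Mature myelin genes had the lowest median of the 15 lists, -0.31. All 22 measured genes were below 0, against 52.7% of all genes, and 0 were called. Gjc3, a gap junction gene, stood at -0.70, Mag at -0.54, the carbonic anhydrase gene Car2 at -0.43 and Tspan2 at -0.31, and without elevated pressure replicate 1 at -0.29, -0.22, -0.15 and -0.14. The median of the list was then -0.07, and over the 10 arrays left out in turn it ran from -0.42 to -0.07. Leaving out elevated pressure replicate 1, control replicate 1 or control replicate 2 left 21 of the 22 genes below 0. Leaving out any other array left all 22 below 0.

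The ligands of Pdgfra were measured as well. All 5 measured of the 6 PDGF ligands and related receptors had values below 0, with 0 called. Pdgfa, the ligand that sustains precursors, stood at -0.03 and at 0.11 on its other probe set, Pdgfb at -0.23, Pdgfc at -0.14, Pdgfd at -0.18 and the pericyte receptor gene Pdgfrb at -0.01. Pdgfd was dim, with mean signals of 71.6 in control and 59.9 in elevated pressure pools. Without elevated pressure replicate 1 Pdgfb, Pdgfa and Pdgfrb each stood at 0.01, and 2 of the 5 genes were below 0. The shared direction was not stable to other arrays either, since 4 of 5 genes were below 0 without control replicate 1, 2, 4 or 5 or without elevated pressure replicate 2 or 4, and all 5 in the other 3 cases.

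Of 40 genes of signals that act on precursors 37 were measured, 16 higher and 21 lower (median -0.02, 0 called). Axin2, a feedback gene of Wnt signalling, had a log2 fold change of -0.34 and the growth factor gene Tgfb1 one of 0.45. These were the 2 of 37 genes at an unadjusted p under 0.05 (limma adjusted p = 0.849 for each), against 3.97% of all genes. The neurotrophin receptor gene Ntrk3 stood at -0.52 and the thyroid hormone receptor gene Thrb at -0.18. Thrb was dim, with mean signals of 36.7 in control and 30.5 in elevated pressure pools, and may lie below background. Axin2 stood at -0.22 and Ntrk3 at -0.31 without elevated pressure replicate 1.

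Cell types that share Pdgfra, Cspg4 or Sox10 with the lineage had medians between -0.06 and 0.03 with all arrays. The 14 pericyte and smooth muscle genes had a median of -0.01, the 15 measured fibroblast and meningeal genes -0.02, the 9 measured pigment genes 0.03 and the 7 measured Schwann cell genes -0.06, with 0 called in each. The pigment median was 0.22 without control replicate 1 and -0.21 without control replicate 2, and the pericyte median ran from -0.04 to 0.11, the highest without elevated pressure replicate 2. With 1 array left out the fibroblast median ran from -0.05 to 0.02 and the Schwann cell median from -0.10 to -0.03. In the order of these 4 lists 7, 6, 5 and 3 genes were higher and 7, 9, 4 and 4 lower. The muscle filament gene Des stood at 0.65, Anpep at 0.27, Pi16 at 0.29 and the neurotrophin receptor gene Ngfr at 0.27. Tagln stood at -0.12, Fbln1 at -0.13, the pigment enzyme gene Tyr at -0.37 and Fabp7 at -0.40. In these 4 lists Ngfr alone had an unadjusted p under 0.05, as 3.97% of all genes had, and another of its probe sets stood at -0.00. Pi16 stood at 0.16 and Fabp7 at -0.16 without elevated pressure replicate 1. The summed signal of the pigment genes ran from 14201 to 37074 in control and from 17413 to 25770 in elevated pressure pools, and that of the pericyte genes from 34491 to 48015 and from 38933 to 42731. No gene of these 4 lists was at 0 on any array, and the lowest value, on a Schwann cell gene, was 1. The part of these cells in the values of Sox10, Pdgfra and Cspg4 was not tested. Astrocyte genes had a median of -0.03, and microglial, neuronal, endothelial and photoreceptor genes medians of -0.02, -0.06, -0.06 and 0.18. The endothelial median ran from -0.17 without elevated pressure replicate 3 to 0.12 without elevated pressure replicate 1, the photoreceptor median from 0.07 to 0.34 and the neuronal median from -0.18 to 0.04.

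**Figure D5:**
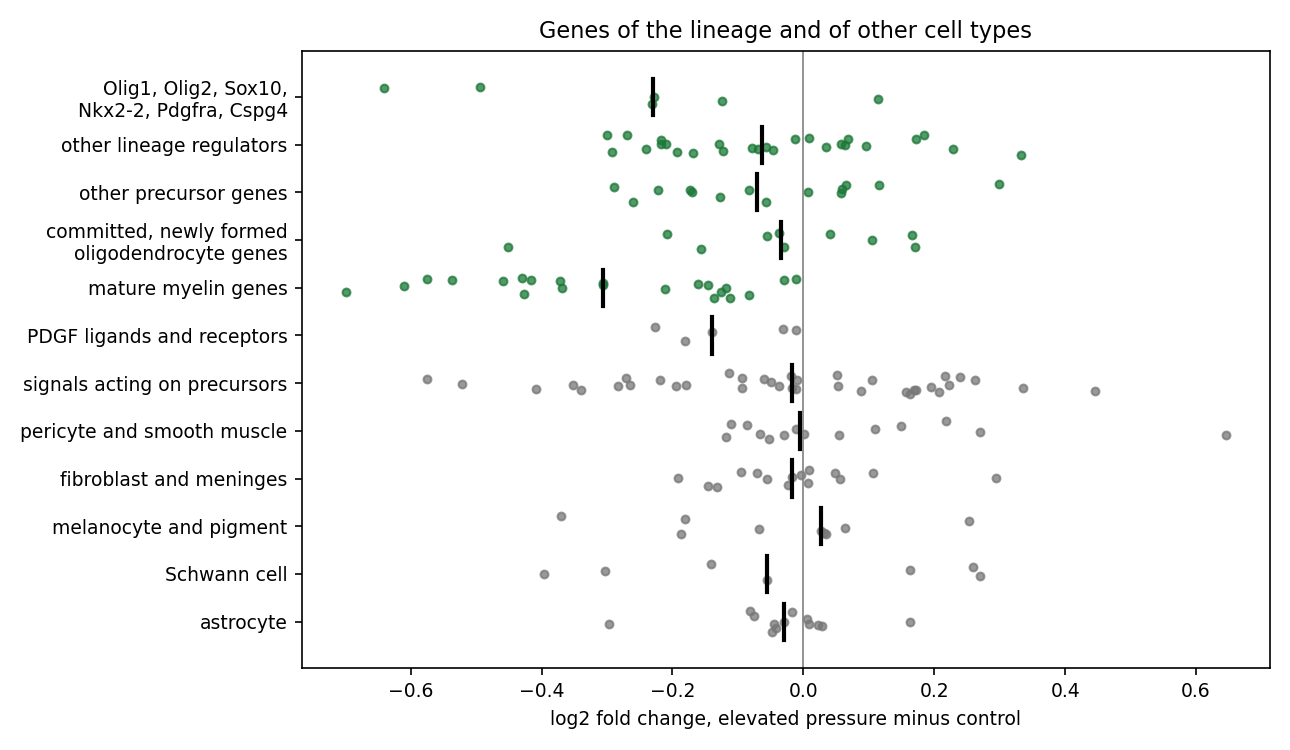
Log2 fold change of elevated pressure minus control (horizontal axis) for each measured gene (points) of the 6 genes studied and of 11 lists, with a black bar at each median; oligodendrocyte lineage lists are green and the others grey. The medians of the 6 genes and of the mature myelin genes, at -0.23 and -0.31, lie farthest below 0. Without elevated pressure replicate 1 these 2 medians were -0.03 and -0.07.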

How the data were processed

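Total RNA of 10 pools of 2 nerve heads was extracted (30 ng per sample amplified with the Ovation system) and hybridised as biotin-labelled cDNA, per the labels' protocols. The deposited table holds linear intensity values, from 0.69 to 20168, for 22690 probe sets. How they were summarised and normalized is not stated in the labels. Of 22626 probe sets that were no controls, 20380 had 1 gene symbol, 691 several and 1555 none in the annotation. Values were put on the scale log2(signal + 16), the probe set with the highest mean was taken per gene, without a filter, and the groups were compared with limma 3.58.1 in R 4.3.3 (lmFit, eBayes, no covariates), called at a Benjamini-Hochberg adjusted p under 0.05. The limma script and the permutation p were tested on simulated data.

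Correlations used 100000 permutations, two-sided, or exact enumeration for 9 arrays. The members and the lists were chosen with earlier results of these data known. All 6 measured genes, all measured PDGF genes and the 3 genes most like each member were named by rule. In the lineage lists and the list of signals the 4 genes with the smallest p were named too. In the pericyte, fibroblast, pigment and Schwann cell lists only some of those 4 were named. In the astrocyte, microglial, photoreceptor, neuronal and endothelial lists none were. The labels call pools biological replicates and give equal numbers in both groups, but not whether equal numbers are the same mice, so p-values measure the spread between these pools. The number of arrays limits the precision. Tables and plots were made in Python 3.11.15 with pandas 2.3.3 and Matplotlib 3.10.9. RefSeq promoters were given for 4 of the members. Alternatives were other normalizations, pseudocounts, probe set rules, dim filters, variance models, replicate blocks, an exact test and each array left out.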

Additional observations from a re-analysis of the deposited data

Results flagged for a closer look

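The dimmer Pdgfra probe set had 1 control array far above the rest of its group. Control replicate 1 read 239, and the other 4 control arrays lay between 125 and 145. Its gap to the nearest array was 0.783 of the group's range on the log2 scale, above the Dixon limit of 0.71 for 5 arrays. Of 22 groups of values tested this was the 1 above the limit, where chance gives about 5%. Without this array the log2 fold change of the probe set was -0.42, against -0.56 with it.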

How the results depend on the processing

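All 6 genes kept their direction and stayed uncalled under each alternative that gave a value, 23 for Olig1, Sox10 and Pdgfra and 22 for the others, which leaving out the dimmest 50% of genes removed. The count of called genes was 0 in each. Some alternatives leave the log2 fold change as it was, so the direction could not turn there. They were the trended variance model, the replicate blocks, the exact test, the dim filters and the fit of every probe set. The same holds for the mean over probe sets in genes with 1 probe set. Over the alternatives the log2 fold change ran from -0.38 to -0.03 for Olig1, -0.69 to -0.25 for Olig2, -0.36 to -0.02 for Sox10, -0.91 to -0.09 for Nkx2-2, -0.34 to -0.01 for Pdgfra (the lowest with the mean over probe sets) and 0.06 to 0.17 for Cspg4. With the mean over probe sets Pdgfra had a limma unadjusted p of 0.0392 (adjusted p = 0.846), where 495 of all genes were under 0.05. No other member or alternative gave an unadjusted p under 0.05. With a fixed replicate block the values were those of the fit without it, -0.23 for Olig1 and -0.49 for Olig2. With this block 0 genes were called. Its standard errors fell from 0.275 to 0.174 for Olig1, 0.350 to 0.245 for Olig2, 0.250 to 0.195 for Sox10 and 0.583 to 0.325 for Nkx2-2. They rose from 0.137 to 0.159 for Pdgfra and from 0.0948 to 0.101 for Cspg4. The limma unadjusted p became 0.231 for Olig1, 0.0821 for Olig2 and 0.0879 for Nkx2-2 (adjusted p = 0.888 for each). A random replicate block raised the standard errors of all 6 genes, to 0.296 for Olig1, 0.374 for Olig2 and 0.629 for Nkx2-2. Same-numbered arrays deviated together at r from -0.08 to 0.21, over 0.1 in 2 of 5 pairs. Of these, 2 of 5 correlated best with their own number. The labels do not say that equal numbers are the same mice, so the numbers were not taken as pairs. Which pools share mice is not given. The 6 called pairs of transcription factors stayed called in each of 16 alternatives, and the count of called pairs ran from 6 to 10 with 1 array left out (10 without control replicate 3). By Spearman's rho the sign turned for Pdgfra with Olig1 (-0.055), Olig2 (-0.018) and Sox10 (-0.067). Without elevated pressure replicate 1 r turned to -0.36, -0.20, -0.42 and -0.15 for Pdgfra with Olig1, Olig2, Sox10 and Nkx2-2, to 0.032, 0.19 and 0.14 for Cspg4 with Olig2, Sox10 and Nkx2-2, to 0.44 for Pdgfra with Cspg4, and to -0.16 and 0.062 for Pdgfra and Cspg4 with mature myelin; the cause was not tested. With 1 array left out the other ends of these ranges were 0.53, 0.56, 0.62 and 0.73 for Pdgfra with the factors in the same order, -0.73, -0.78 and -0.76 for Cspg4 with Olig2, Sox10 and Nkx2-2, -0.58 for Pdgfra with Cspg4, and 0.74 and -0.80 for Pdgfra and Cspg4 with mature myelin. The 11 called relations with list scores were 4 by rho, with the mean over probe sets or without elevated pressure replicate 1, and 7 without control replicate 3. Pairs with Gpr17 could not be computed, which left 15 of 21.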
